A study of Mus musculus with 12 samples.

Results

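The genes described here make up the MHC class I antigen presentation pathway of the mouse, together with the class II genes that lie in the same chromosomal region. They were taken as every non-control probe whose gene name on the array begins with H2-, or is B2m, Tap1, Tap2, Tapbp, Psmb8, Psmb9, Psmb10, Psme1 or Psme2. This gave 44 of 27962 gene names on the array, with 67 of 41174 probes, of which 55 probes have a name beginning with H2-, and no probe carries the name Psme2. Expression was measured on 12 one-colour Agilent oligonucleotide arrays in mouse embryonic fibroblasts (MEFs), connective tissue cells grown from embryos, which differed in SIRT1, an NAD-dependent protein deacetylase. The groups were SIRT1 knockout (KO) cells on arrays numbered 2, 3, 4 and 5, SIRT1 heterozygous (Het) cells on arrays numbered 2, 3, 4 and 5, and wild-type (WT) cells on arrays numbered 1, 2, 3 and 5. All cells were labelled as female, received no special treatment and were grown in DMEM with 25 mM glucose, 4 mM glutamine and 10% FBS until they were harvested in log-phase growth, and 500 ng of total RNA was labelled for each array. The labels give no allele of the knockout, mouse strain or passage, and nothing says that the arrays of a genotype were separate cultures. The p-values therefore speak only of array-to-array spread, part of which, and in some genotypes all, may be technical.

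MHC class I molecules carry peptides from the inside of a cell to its surface, where CD8 T cells and natural killer cells read them. Proteins are cut by the proteasome, in which the interferon-induced subunits Psmb8, Psmb9 and Psmb10 can replace the constitutive ones, the transporter Tap1-Tap2 moves the peptides into the endoplasmic reticulum, and tapasin (Tapbp) helps to load them on a heavy chain paired with the light chain B2m. Fibroblasts express class I at a basal level that interferons raise, whereas class II, which presents peptides from outside the cell to CD4 T cells, is mostly restricted to professional antigen-presenting cells.

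Levels are given as the log2 of the processed signal relative to the 75th percentile of the array over its non-control probes, so that a level of 0 equals that percentile. Differences between genotypes are log2 differences of mean levels with their standard error (SE). Testing was limited to probes that the extraction software called well above background on all arrays of at least 1 genotype. Of the 67 probes, 39 were well above background on all 12 arrays, 17 on some and 11 on none, and no member was saturated on any array. The test covered 43 of the 67, under 30 gene names, among 25600 tested probes in all. In bulk RNA, more cells that express a gene and more RNA of it per cell cannot be told apart.

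Some facts of the whole series bear on all values below. Percentages of probes well above background ranged from 76.85 to 77.79 on the 4 arrays of 1 slide and from 59.7 to 64.84 on the other 8 arrays. On the array labelled WT 3, the noncoding RNA Xist stood at −2.94 and the Y-linked gene Ddx3y at 1.04, against 1.66 to 3.42 and at most −4.35 on the other 11 arrays, which goes against the label female. Het 3 and KO 3 came next after WT 3 at this Ddx3y probe (−4.35 and −5.28) and at Y-linked Eif2s3y (−3.92 and −5.02). At a second Ddx3y probe WT 2 came next, at −4.80, and Het 3 and KO 3 stood at −7.20 and −8.56. The source of these signals was not tested. The arrays numbered 3 of all genotypes stood apart from their group. The members' calls, median differences, order of means and median spread are therefore also given without them. KO 4 and KO 5 were the most alike of all pairs within a genotype, with a correlation of 0.998 over the tested probes. Of the 2 Sirt1 probes, 1 averaged −0.47 in KO, 0.37 in Het and 0.36 in WT cells and the other 0.81, 0.87 and 0.79, and the position of the knockout allele relative to either probe is not given in the sources used here. All 10 fibroblast markers were well above background on all 12 arrays. Of 10 markers of macrophages and dendritic cells, 2 were well above background on all 12 arrays, and the pan-leukocyte gene Ptprc on none.

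Several of the probes may not tell class I genes from each other, since the heavy chain genes are close relatives. Binding of a probe to related RNAs was not tested. Pairs of tested probes that overlap in sequence are shown here because they mark where a gene name on the array may stand for more than 1 gene. Identical bases of a pair are in capitals, and both are given 5′ to 3′ as deposited in the array files. The probes of H2-Q5 (A_51_P400752) and H2-Q10 (A_51_P496997) share 35 of 35 overlapping bases.
H2-Q5: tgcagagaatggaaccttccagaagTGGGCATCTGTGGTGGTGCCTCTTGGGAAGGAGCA
H2-Q10: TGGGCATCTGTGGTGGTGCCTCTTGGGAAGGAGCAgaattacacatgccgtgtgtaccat
After each probe was centred on its mean, these 2 differed by 0.03 on average over the 12 arrays and by at most 0.08. The probes of H2-T23 (A_51_P237754) and H2-Q7 (A_51_P262079) share 50 of 59 overlapping bases.
H2-T23: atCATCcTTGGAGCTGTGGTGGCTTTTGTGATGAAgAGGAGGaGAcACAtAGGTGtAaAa
H2-Q7: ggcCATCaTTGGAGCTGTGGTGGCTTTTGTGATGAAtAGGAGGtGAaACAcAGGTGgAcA
Their centred levels differed by 0.12 on average. In the other pair tested on both sides, H2-Q10 (A_51_P230267) and H2-Q7 (A_51_P262079) share 38 of 46 bases, and their centred levels differed by 0.50 on average and by up to 1.25. This H2-Q10 probe lay near background, at −7.02 to −5.59 and well above background on 9 of 12 arrays, while H2-Q7 stood at 2.89 to 5.37. The pair therefore cannot show whether an overlap goes with like levels. The 4 probes named H2-Q10, a gene known in mice for a secreted class I molecule of the liver, differed in level and in Het minus WT. Their WT means were 4.13 at A_51_P496997, 1.20 at A_52_P428354, −6.29 at A_51_P230267 and −4.52 at A_51_P230269, so 2 of the 4 were dim. Het minus WT was 0.50 and 0.52 at A_51_P496997 and A_52_P428354, 0.33 at A_51_P230267 and −0.43 at A_51_P230269, and none of the 4 passed the test. Values of single H2-Q, H2-D, H2-K and H2-T genes below are therefore values of probes, and other class I RNAs may have contributed to them.

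The classical heavy chains H2-K1 and H2-D1 spread widely over the Het and WT arrays, and the 3 genotypes overlapped. None of the 24 tested heavy chain probes passed the test in any comparison. H2-K1, which encodes the classical heavy chain H-2K (probe at build mm7, chromosome 17, 32074445 to 32074504), stood at 5.13, 4.46, 4.92 and 5.02 on KO arrays 2, 3, 4 and 5, at 5.94, 4.09, 5.00 and 5.00 on Het arrays 2, 3, 4 and 5, and at 4.83, 3.46, 5.76 and 3.40 on WT arrays 1, 2, 3 and 5. Het 2 and WT 3 were the highest arrays and WT 2 and WT 5 the lowest, and the 3 genotypes overlapped. H2-K1 averaged 4.88 ± 0.29 in KO, 5.01 ± 0.76 in Het and 4.36 ± 1.14 in WT cells (SD, n = 4 each). The difference was 0.52 for KO minus WT (SE 0.51, limma adjusted p = 0.689), 0.64 for Het minus WT (SE 0.51, limma adjusted p = 0.578) and −0.12 for KO minus Het (SE 0.51, limma adjusted p = 0.966).

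**Figure D1:**
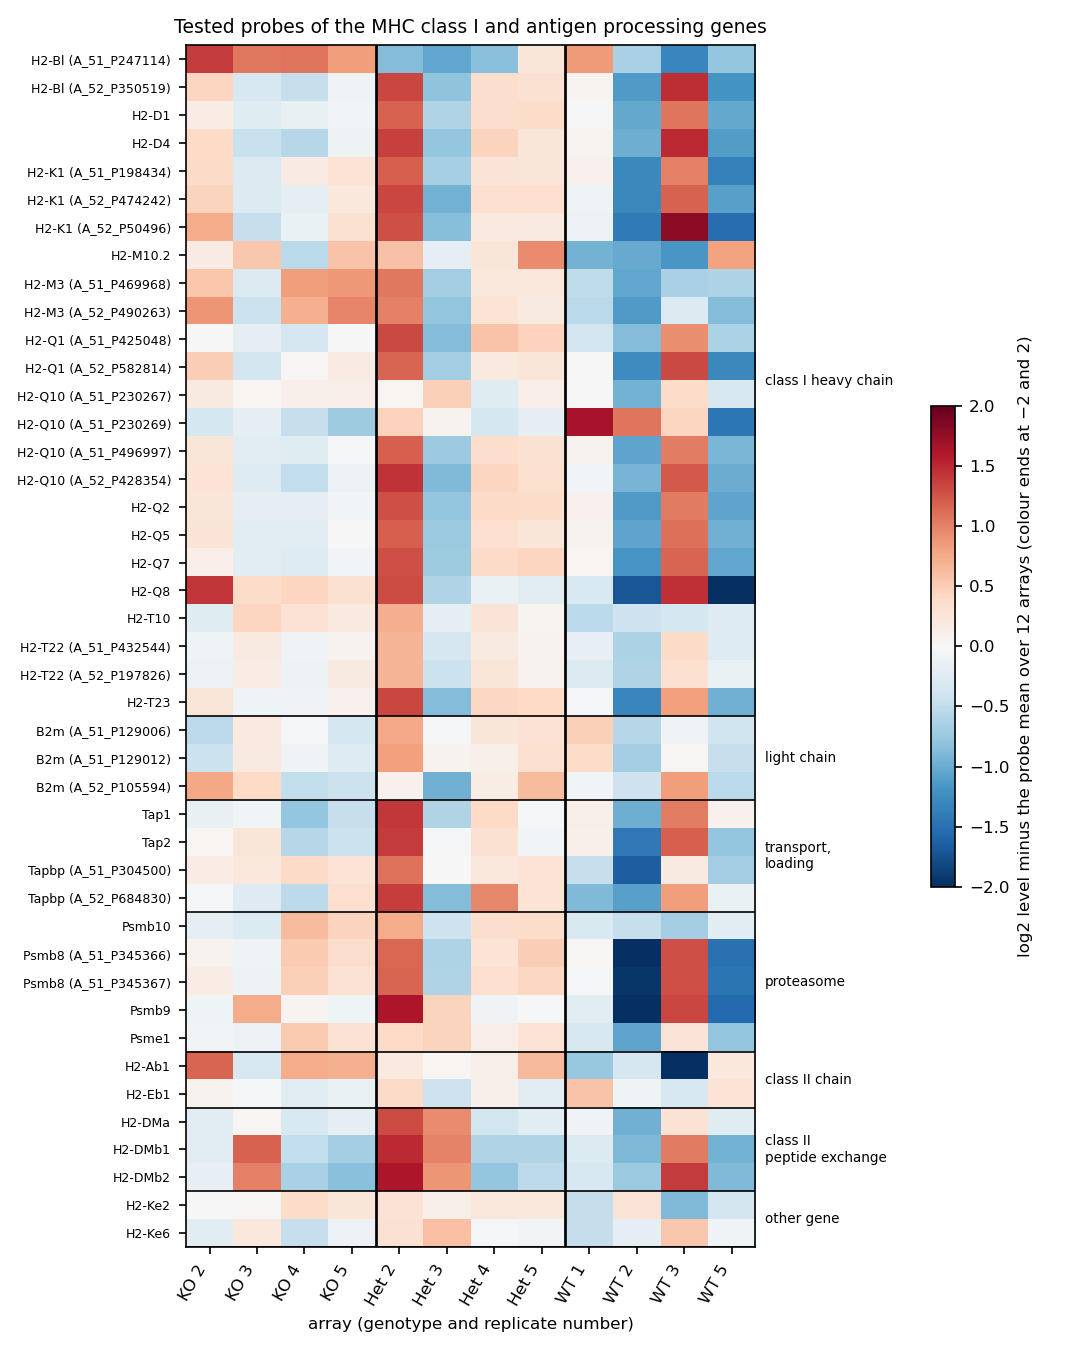
Level of the 43 tested probes (rows, grouped by role) on the 12 arrays (columns, by genotype and replicate number), each minus its mean over the 12 arrays, on a log2 colour scale that ends at −2 and 2. Most class I rows are highest on Het 2 and WT 3 and lowest on WT 2, WT 5 and Het 3, while the KO columns differ little from each other.

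H2-D1, which encodes the other classical heavy chain of many strains (probe on chromosome 17, 33361850 to 33362082), showed the same array pattern. Its levels were 4.46, 4.08, 4.17 and 4.26 on the KO arrays, 5.49, 3.71, 4.67 and 4.69 on the Het arrays and 4.31, 3.29, 5.39 and 3.30 on the WT arrays. The means were 4.24 ± 0.16 in KO, 4.64 ± 0.73 in Het and 4.07 ± 1.00 in WT cells (SD, n = 4 each). The KO arrays lay inside the range of the Het arrays and inside that of the WT arrays. Differences were 0.17 for KO minus WT (SE 0.46, limma adjusted p = 0.906), 0.57 for Het minus WT (SE 0.46, limma adjusted p = 0.585) and −0.40 for KO minus Het (SE 0.46, limma adjusted p = 0.822).

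The likeness of these profiles can be put in 1 number, the mean absolute difference between a probe's centred levels and those of H2-K1 over the 12 arrays. Among other gene names, H2-Q1 (A_52_P582814) was nearest, at 0.09, followed by H2-Q5 at 0.14, H2-Q10 (A_51_P496997) at 0.15, H2-Q2 at 0.16, H2-D1 at 0.16 and H2-T23 and H2-Q7 at 0.18 each. The first gene outside the heavy chains was Psmb8, at 0.19 and 0.21 for its 2 probes. Tapbp (A_51_P304500) stood at 0.35, Tap2 at 0.37, Tap1 at 0.41, Psme1 at 0.42, Psmb9 at 0.48 and B2m (A_51_P129012) at 0.51. These values are a description over 12 arrays that all members share, and probes with common sequence can carry the same RNA.

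The spread within a genotype was a property of the pathway that its selection did not use. The median SD over the 43 tested probes was 0.29 in KO, 0.73 in Het and 0.93 in WT cells, against 0.24, 0.27 and 0.44 over all 25600 tested probes. The SD was smallest in KO cells for 35 of the 43, or 81.4%, against 48.3% of all tested probes. Without the arrays numbered 3, the median SDs of the members were 0.24, 0.49 and 0.58, against 0.18, 0.19 and 0.29 over all tested probes. With 3 arrays each, 36 of the 43 had their smallest SD in KO cells, or 83.7%, against 43.9% of all tested probes. Het 2 held the highest Het level for 36 of the 43, or 83.7%, against 26.2% of all tested probes. WT 3 held the highest WT level for 32 of them, or 74.4%, against 31.7% of all tested probes. Between Het 2 and Het 3 the members differed by a median of 1.41, against 0.34 for all tested probes, and between WT 2 and WT 3 by 1.95, against 0.67. KO 4 and KO 5 differed by 0.19, against 0.11, and Het 4 and Het 5 by 0.10, against 0.16. The other KO pairs differed by 0.274 to 0.422 for the members, against 0.245 to 0.313. No test of these spreads was made.

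H2-M3, which presents N-formylated peptides of bacterial and mitochondrial origin, differed from the classical heavy chains in its order of genotypes. Its probe A_51_P469968 (chromosome 17, 35427134 to 35427193) stood at 0.36, −0.48, 0.63 and 0.67 on the KO arrays, 0.86, −0.89, 0.03 and 0.02 on the Het arrays and −0.70, −1.24, −0.84 and −0.81 on the WT arrays. All KO arrays lay above all WT arrays. The difference was 1.19 for KO minus WT (SE 0.35). Its exact permutation p was 0.0286 (two-sided), which 4 against 4 arrays cannot go below, and it missed the threshold with a limma adjusted p of 0.124. Het minus WT was 0.91 (SE 0.35, limma adjusted p = 0.238). The second H2-M3 probe (A_52_P490263, 35423801 to 35423860) gave −2.18, −3.50, −2.36 and −2.09 on the KO arrays, −2.06, −3.86, −2.79 and −2.89 on the Het arrays and −3.61, −4.20, −3.34 and −3.94 on the WT arrays. KO 3 and Het 3 were low in their genotype at both probes. The second probe differed by 1.24 for KO minus WT (SE 0.39, limma adjusted p = 0.153) and by 0.87 for Het minus WT (SE 0.39, limma adjusted p = 0.309).

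H2-T10, a nonclassical class I gene whose product is known as a ligand of gamma-delta T cells, was singled out after its values were seen, because it was the only tested member whose Het and WT arrays did not overlap. It stood at 4.13, 4.79, 4.66 and 4.57 on the KO arrays, 5.09, 4.20, 4.63 and 4.42 on the Het arrays and 3.83, 3.95, 4.02 and 4.12 on the WT arrays. The KO minus WT difference was 0.56 (SE 0.21, limma adjusted p = 0.207) and Het minus WT 0.61 (SE 0.21, limma adjusted p = 0.191), each with an exact two-sided permutation p of 0.0286, the smallest possible. Groups did not overlap for 2 of the 43 members in KO against WT, H2-M3 and H2-T10, or 4.65%, against 8.65% of all tested probes. The count was 1, or 2.33%, for Het against WT, against 8.68%, and 1, or 2.33%, for KO against Het, against 9.93%. The 1 for KO against Het was H2-Bl (A_51_P247114), which entered the test only through the KO arrays, where it is high.

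H2-Q8, a Qa-region heavy chain gene (A_52_P152133, chromosome 17, 33492583 to 33492642), had one of the largest differences from WT and one of the widest spreads. It stood at 1.68, 0.62, 0.68 and 0.56 on the KO arrays, 1.56, −0.35, 0.13 and 0.02 on the Het arrays and −0.05, −1.45, 1.71 and −2.06 on the WT arrays. KO minus WT was 1.35 (SE 0.71, limma adjusted p = 0.383) and Het minus WT 0.80 (SE 0.71, limma adjusted p = 0.619), differences within the spread of the WT arrays.

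H2-Bl, named for a class I gene described in blastocysts, had the largest difference between KO and Het cells of any member, at a level near background. Its probe A_51_P247114 has a position on unplaced sequence of build mm7, and it was well above background on 4 of 4 KO arrays, 1 of 4 Het arrays and 0 of 4 WT arrays. Levels were −5.68, −6.01, −5.99 and −6.23 on the KO arrays, −7.94, −8.10, −7.91 and −6.83 on the Het arrays and −6.22, −7.71, −8.37 and −7.83 on the WT arrays. All KO arrays lay above all Het arrays, and WT 1 lay among the KO arrays. Against the lowest signals that counted as above background, KO cells were at least 1.37-fold higher than WT cells, with fitted means of −5.98 ± 0.23 and −7.53 ± 0.92 (SD, n = 4 each), and limma gave an adjusted p of 0.0986. KO minus Het was 1.72 (SE 0.41, limma adjusted p = 0.104, exact two-sided permutation p = 0.0286). The probe entered the test only through the KO arrays, where it is high, so its differences from both other genotypes are a description.

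There are 2 other probes with the name H2-Bl. The probe A_52_P560113 overlaps the one above in 30 of 30 bases, printed here because both therefore read the same stretch of RNA.
H2-Bl A_51_P247114: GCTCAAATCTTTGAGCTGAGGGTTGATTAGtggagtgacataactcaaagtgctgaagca
H2-Bl A_52_P560113: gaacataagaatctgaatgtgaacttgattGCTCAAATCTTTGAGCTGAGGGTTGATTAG
This overlapping probe was well above background on 2 KO arrays and on no Het or WT array, so it was not tested. The third probe, A_52_P350519 was well above background on all 12 arrays and followed H2-K1, with a mean centred difference of 0.19, and its KO minus WT difference was 0.10 (SE 0.58, limma adjusted p = 0.961). The overlapping probe stood at −7.03 to −6.63 on the KO arrays, −8.19 to −7.85 on the Het arrays and −8.77 to −7.78 on the WT arrays, so it was highest in KO cells like A_51_P247114, and the third probe differed from both.

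H2-M10.2, one of a family of class I genes known from the vomeronasal organ, was also near background (A_52_P291723, chromosome 17, 34433949 to 34434008). It was well above background on all KO and Het arrays and on 1 WT array. Its levels were −5.36, −4.99, −6.07 and −4.97 on the KO arrays, −4.94, −5.72, −5.28 and −4.59 on the Het arrays and −6.47, −6.54, −6.70 and −4.73 on the WT arrays. The single bright WT array, WT 5, lay on the slide with the highest share of probes above background. Het minus WT was 0.98 (SE 0.43, limma adjusted p = 0.297) and KO minus WT 0.76 (SE 0.43, limma adjusted p = 0.423). The probe entered the test only through the KO and Het arrays, where it is higher, so its differences from WT are a description. The other M-region genes on the array, H2-M1, H2-M9, H2-M11, H2-M10.1 and H2-M10.3 to H2-M10.6, were well above background on at most 2 of the 12 arrays each and were not tested. The heavy chain probes as a whole comprised 38, of which 7 were above background on no array.

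B2m, the invariant light chain needed for class I to reach the surface, varied less between arrays than the classical heavy chains. Its probe A_51_P129012 (chromosome 2, 121893518 to 121893577) stood at 5.24, 5.84, 5.60 and 5.41 on the KO arrays, 6.49, 5.74, 5.78 and 5.99 on the Het arrays and 6.03, 4.97, 5.70 and 5.20 on the WT arrays. Het 2 was again the highest array and WT 2 the lowest. The means were 5.52 ± 0.26 in KO, 6.0 ± 0.35 in Het and 5.47 ± 0.48 in WT cells (SD, n = 4 each). For KO minus WT the difference was 0.05 (SE 0.26, limma adjusted p = 0.959), Het minus WT 0.52 (SE 0.26, limma adjusted p = 0.345) and KO minus Het −0.48 (SE 0.26, limma adjusted p = 0.532). The second probe gave 0.45 and −0.03 for Het and KO minus WT, and the third probe 0.02 and 0.11.

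The transporter subunit Tap1 (chromosome 17, 32273751 to 32273810) had its lowest mean in KO cells, unlike most members. It stood at 0.49, 0.59, −0.12 and 0.18 on the KO arrays, 2.07, 0.04, 1.04 and 0.61 on the Het arrays and 0.77, −0.33, 1.68 and 0.74 on the WT arrays. The genotypes overlapped, with Het 2 and WT 3 highest. KO minus WT was −0.42 (SE 0.46, limma adjusted p = 0.714), Het minus WT 0.23 (SE 0.46, limma adjusted p = 0.844) and KO minus Het −0.65 (SE 0.46, limma adjusted p = 0.663).

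Its partner Tap2 (chromosome 17, 32294682 to 32295269) stood at −0.25, −0.05, −0.85 and −0.71 on the KO arrays, 1.10, −0.30, 0.02 and −0.35 on the Het arrays and −0.19, −1.71, 0.91 and −1.05 on the WT arrays. KO and WT means were alike at −0.47 ± 0.38 and −0.51 ± 1.13 (SD, n = 4 each), a difference of 0.04 (SE 0.51, limma adjusted p = 0.98). Het minus WT was 0.63 (SE 0.51, limma adjusted p = 0.579) and KO minus Het −0.59 (SE 0.51, limma adjusted p = 0.741).

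Tapbp, the chaperone tapasin that bridges the transporter and the heavy chain, had the largest difference of the loading genes. Its probe A_51_P304500 (chromosome 17, 32007107 to 32007166) stood at 4.81, 4.88, 5.05 and 4.94 on the KO arrays, 5.75, 4.65, 4.88 and 4.93 on the Het arrays and 4.21, 3.02, 4.84 and 3.97 on the WT arrays. Of the 4 WT arrays, WT 1, WT 2 and WT 5 lay below every KO and Het array, and WT 3 lay among them. The difference of KO minus WT was 0.91 (SE 0.34, limma adjusted p = 0.213) and Het minus WT 1.05 (SE 0.34, limma adjusted p = 0.172), each with an exact two-sided permutation p of 0.0571. The second Tapbp probe (A_52_P684830) stood at 0.13, −0.07, −0.35 and 0.51 on the KO arrays, 1.56, −0.69, 1.13 and 0.46 on the Het arrays and −0.70, −0.91, 1.00 and 0.05 on the WT arrays. There KO minus WT was 0.19 (SE 0.50, limma adjusted p = 0.902) and Het minus WT 0.75 (SE 0.50, limma adjusted p = 0.495), so the 2 probes differ in the size of the KO difference.

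**Figure D2:**
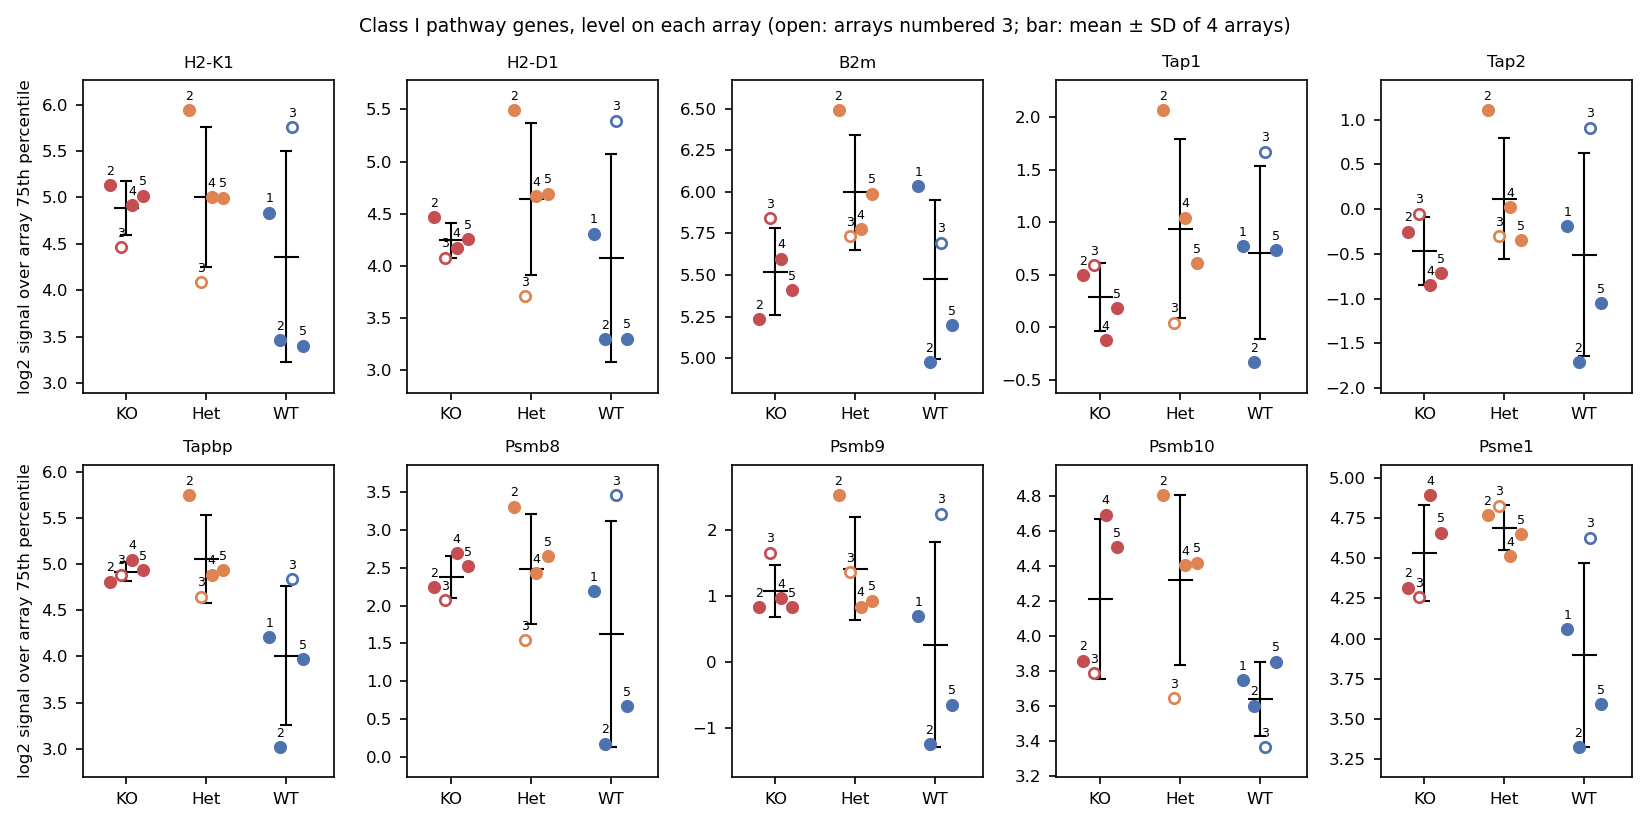
Level of 10 class I pathway genes (y axis, log2 signal over the array 75th percentile) on each of 4 KO, 4 Het and 4 WT arrays, numbered by replicate, with the mean and SD as bars and open points for the arrays numbered 3. WT arrays 2 and 5 lie low in most panels and Het 2 and WT 3 high, while the H2-D1 levels on the KO arrays lie between 4.08 and 4.46.

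The immunoproteasome genes were on average higher in KO and Het than in WT cells without passing the test. Psmb8 (A_51_P345366, chromosome 17, 32280725 to 32281049), the chymotrypsin-like subunit, stood at 2.24, 2.07, 2.69 and 2.52 on the KO arrays, 3.31, 1.55, 2.43 and 2.65 on the Het arrays and 2.19, 0.17, 3.46 and 0.68 on the WT arrays. WT 2 and WT 5 were lower than every other array, and WT 3 was higher than every other array. KO minus WT was 0.75 (SE 0.61, limma adjusted p = 0.607) and Het minus WT 0.86 (SE 0.61, limma adjusted p = 0.526). Its second probe gave 0.74 and 0.86.

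Psmb9 (chromosome 17, 32262147 to 32262206), whose gene shares its upstream region with Tap1, stood at 0.84, 1.66, 0.97 and 0.83 on the KO arrays, 2.54, 1.37, 0.84 and 0.93 on the Het arrays and 0.70, −1.25, 2.25 and −0.64 on the WT arrays. WT arrays ranged more widely than the difference of 0.81 for KO minus WT (SE 0.65, limma adjusted p = 0.599) or of 1.15 for Het minus WT (SE 0.65, limma adjusted p = 0.413). Although Psmb9 and Tap1 lie head to head, their mean differences for KO minus WT had opposite signs, and neither passed the test.

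Psmb10 (A_52_P570266, chromosome 8, 104534632 to 104534691), the third inducible subunit, stood at 3.86, 3.79, 4.69 and 4.51 on the KO arrays, 4.81, 3.65, 4.41 and 4.42 on the Het arrays and 3.75, 3.60, 3.37 and 3.85 on the WT arrays. WT 3, high for Psmb8 and Psmb9, was the lowest array for Psmb10. The KO minus WT difference was 0.57 (SE 0.27, limma adjusted p = 0.334) and Het minus WT 0.68 (SE 0.27, limma adjusted p = 0.259).

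Psme1, the alpha subunit of the interferon-induced PA28 activator (chromosome 14, 50448660 to 50448719), stood at 4.32, 4.26, 4.89 and 4.66 on the KO arrays, 4.77, 4.83, 4.51 and 4.65 on the Het arrays and 4.06, 3.33, 4.63 and 3.59 on the WT arrays. As for Tapbp, 3 WT arrays lay below every KO and Het array. KO minus WT was 0.63 (SE 0.26, limma adjusted p = 0.258) and Het minus WT 0.79 (SE 0.26, limma adjusted p = 0.177).

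The class II genes were mostly near background in these fibroblasts. Of 8 probes for class II chains 2 were tested, and H2-Aa and H2-Ea, the alpha chains of the classical class II molecules, had no tested probe. H2-Ab1, a beta chain, was tested by 1 of its 4 probes (A_52_P683598, chromosome 17, 32346939 to 32346998), which was well above background on all KO and Het arrays and on 1 WT array. It stood at −4.38, −5.85, −4.80 and −4.83 on the KO arrays, −5.34, −5.50, −5.42 and −4.89 on the Het arrays and −6.29, −5.87, −7.92 and −5.33 on the WT arrays. For KO minus WT the difference was 1.39 (SE 0.48, limma adjusted p = 0.183) and Het minus WT 1.06 (SE 0.48, limma adjusted p = 0.309). The probe entered the test only through the KO and Het arrays, where it is higher, so these differences are a description. WT 3 was the lowest array, the reverse of its place among the class I genes. H2-Eb1, another beta chain and the other tested class II chain, was well above background on all 12 arrays, averaged −5.12 ± 0.12 in KO, −5.09 ± 0.35 in Het and −4.94 ± 0.39 in WT cells (SD, n = 4 each) and had differences of −0.18 for KO minus WT and −0.15 for Het minus WT (limma adjusted p = 0.76 and 0.783).

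The genes for H2-DM, which exchanges peptides on class II in endosomes, were not ordered by genotype. H2-DMa (A_51_P473734, chromosome 17, 32217439 to 32218002) stood at −2.64, −2.40, −2.74 and −2.63 on the KO arrays, −1.12, −1.49, −2.79 and −2.65 on the Het arrays and −2.50, −3.38, −2.15 and −2.68 on the WT arrays. KO minus WT was 0.07 (SE 0.37, limma adjusted p = 0.955), Het minus WT 0.67 (SE 0.37, limma adjusted p = 0.409) and KO minus Het −0.59 (SE 0.37, limma adjusted p = 0.615). H2-DMb1, a beta chain, was at 0.06 on KO 3, −0.14 on Het 3, −0.08 on WT 3 and 0.37 on Het 2, and between −2.07 and −1.33 on the other 8 arrays. H2-DMb2 was likewise at −2.41 to −1.67 on those 4 arrays and at −4.17 to −3.45 on the others. None of the 3 differed between genotypes by limma (adjusted p at least 0.409 in each comparison).

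A pair of members are neighbours of the MHC genes with other functions. H2-Ke2, the array's name for the prefoldin subunit Pfdn6, differed by 0.52 for KO minus WT and 0.57 for Het minus WT (limma adjusted p = 0.254 and 0.222). H2-Ke6, an enzyme gene of steroid and fatty acid metabolism, differed by −0.09 and 0.26 (limma adjusted p = 0.902 and 0.643).

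Set beside each other, the members were mostly higher in Het than in WT cells, with KO cells between them, but none of the 43 passed the threshold. For KO minus WT, 0 of 43 were called by limma at an adjusted p under 0.05, where 1.5% of all tested probes were. For Het minus WT the count was 0 of 43 against 1.09%, and for KO minus Het 0 of 43 against 0.816%. At an unadjusted limma p under 0.05 there were 8 members for KO minus WT, or 18.6%, against 16.3% of all tested probes. There were 9 for Het minus WT, or 20.9%, against 15.9%, and 1 for KO minus Het, or 2.33%, against 11.3%. These shares lie near the background or below it. The 1 for KO minus Het was H2-Bl (A_51_P247114), which passed the filter only through the KO arrays. That probe and H2-Ab1 are also in the count for KO minus WT, and H2-M10.2 and H2-Ab1 in that for Het minus WT. All 3 passed the filter only through groups where they were high, so they give no support to these counts.

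The signs were less evenly split than the calls. The log2 difference was above 0 for 36 of the 43 in KO minus WT, or 83.7%, against 55.1% of all tested probes, with a median of 0.21 against 0.04. For Het minus WT it was above 0 for 40, or 93.0%, against 52.5%, with a median of 0.57 against 0.02. KO minus Het was above 0 for 7, or 16.3%, against 50%, with a median of −0.22 against −0.0002. The mean level was highest in Het cells for 34 of the 43, or 79.1%, against 33.7% of all tested probes, and in the order Het, KO, WT for 29, or 67.4%, against 20.7%. Without the arrays numbered 3 those counts were 35, or 81.4%, against 31.5%, and 32, or 74.4%, against 16.8%. The median differences over 46 tested members were then 0.62 for KO minus WT, 1.10 for Het minus WT and −0.345 for KO minus Het. Over all tested probes they were 0.008, 0.0039 and −0.0057. The comparisons share their control arrays, and the members share arrays and partly sequence, so these counts are not independent observations and were given no p.

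**Figure D3:**
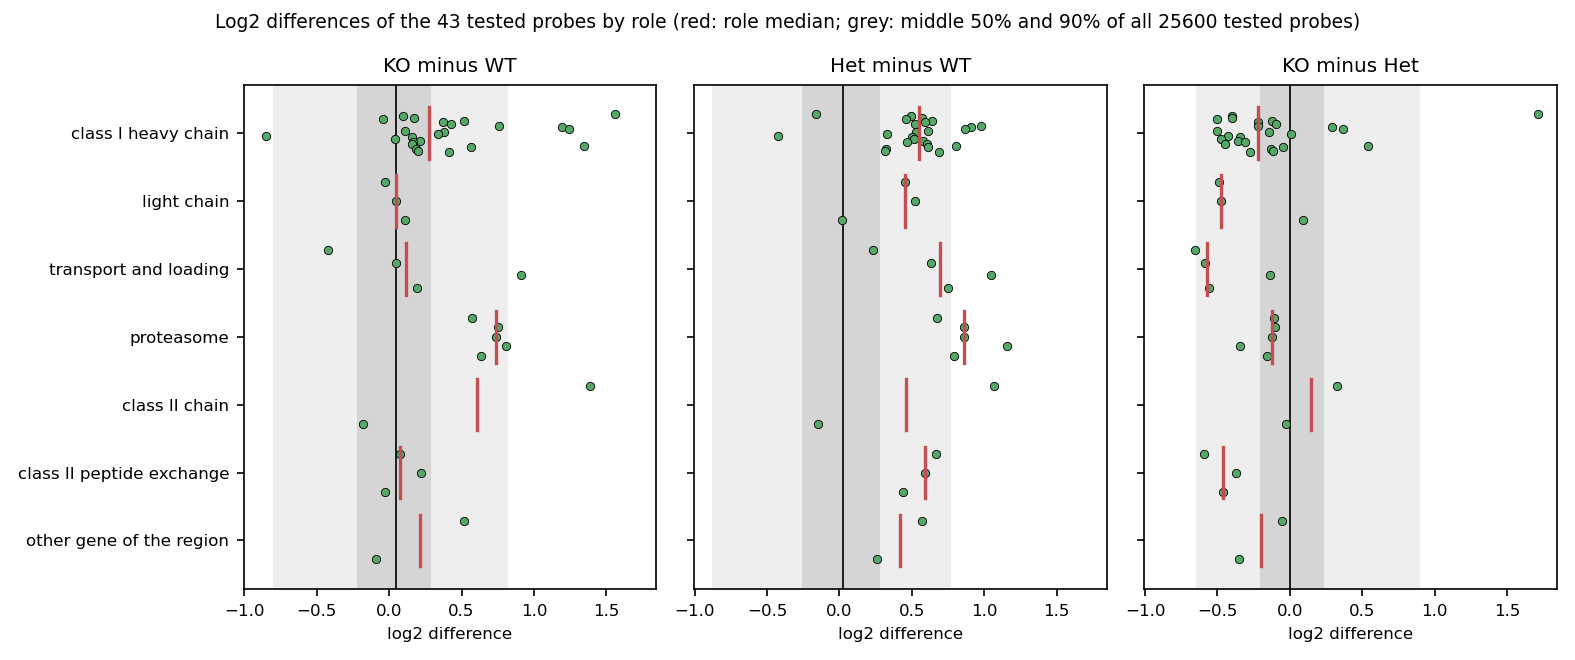
Log2 differences (x axis) of the 43 tested probes by role (rows, 1 point per probe, red line at the role's median) for KO minus WT, Het minus WT and KO minus Het, over grey bands that hold the middle 50% and 90% of all 25600 tested probes. Most points of Het minus WT lie right of the band's centre, with medians from 0.42 to 0.86 by role, and H2-Bl stands alone at 1.72 in KO minus Het.

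By role, the proteasome genes had the largest median differences, 0.74 for KO minus WT and 0.86 for Het minus WT over 5 probes, and heavy chains had 0.28 and 0.55 over 24. The 4 transport and loading probes had 0.12 and 0.69, and the 3 light chain probes 0.05 and 0.45. Array medians show how much of this rests on single arrays. The 43 members, each centred on its mean, had medians of 0.15, −0.09, −0.13 and 0.07 on the KO arrays, 1.17, −0.61, 0.25 and 0.24 on the Het arrays and −0.06, −1.01, 0.84 and −0.78 on the WT arrays. Without WT 3, the median difference was 0.58 for KO minus WT and 0.99 for Het minus WT, and without WT 2 it was 0.03 for KO minus WT. Without Het 2 it was 0.29 for Het minus WT and 0.01 for KO minus Het.

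The arrays lay on 4 slides, of which 2 held all 3 genotypes. Within slide 3, which held KO 2, Het 2, WT 2 and WT 3, the members' median was 0.27 for KO minus WT, 1.29 for Het minus WT and −0.94 for KO minus Het. Within slide 4, which held KO 4, KO 5, Het 5 and WT 5, it was 0.78, 1.05 and −0.14. Within slide 1, which held KO 3, Het 3 and Het 4 and no WT array, KO minus Het was −0.02. With slide as a block in the fit, the medians were 0.62, 0.99 and −0.25, and 0 of 43 members were called in each comparison, where 0.281%, 0.227% and 0.418% of all tested probes were. With the replicate number as a block, 1 member, H2-Bl (A_51_P247114), was called for KO minus WT and for KO minus Het and 0 for Het minus WT. The shares of all tested probes were 0.57%, 0.852% and 0.43%. WT 1 was the only array on its slide and the only one with its number, so it contributed nothing to the differences in either block fit. For this H2-Bl probe WT 1 was the WT array that lay among the KO arrays. Without a filter on dim probes 1 (A_52_P560113, also H2-Bl) was called for KO minus WT, against 0.289%.

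Without the 3 arrays numbered 3 the picture of single genes changed. In that fit 46 members were tested with 3 arrays per genotype, and all calls were in the upward direction. Between the arrays left out, Het 3 minus WT 3 had a median of −0.884 over the 43 members tested with all arrays, with 12 above 0. Over all tested probes that median was 0.086. KO 3 minus WT 3 had a median of −0.592 over the members, against 0.167. Leaving these arrays out by itself raises the members' differences from WT. For Het minus WT 14 of 46, or 30.4%, rose, against 4.7% of all tested probes in that direction. They were 9 heavy chain probes of H2-D1, H2-K1 (A_52_P474242), H2-Q1, H2-Q2, H2-Q7, H2-Q10 (A_52_P428354), H2-T23 and H2-M3 (both probes), the 2 probes each of Tapbp and Psmb8, and Psme1. Tapbp (A_51_P304500) rose 2.75-fold (1.46, SE 0.34, limma adjusted p = 0.0282), Psmb8 (A_51_P345366) 3.44-fold (1.78, SE 0.47, limma adjusted p = 0.0479), H2-D1 2.49-fold (1.32, SE 0.32, limma adjusted p = 0.035) and Psme1 1.98-fold (0.99, SE 0.22, limma adjusted p = 0.0259). H2-K1 (A_51_P198434), B2m, Tap1, Tap2, Psmb9 and Psmb10 were not called. Probes of H2-T23 and H2-Q7 overlap in sequence, as shown above, so they do not count as separate genes with certainty.

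For KO minus WT in the same fit 7 of 46, or 15.2%, rose, against 7.5% of all tested probes in that direction. They were the 2 H2-M3 probes, H2-Q8, Tapbp (A_51_P304500), Psme1, H2-Ab1 (A_52_P683598) and H2-Oa (A_51_P449325), a subunit of H2-O, which inhibits H2-DM. H2-M3 (A_51_P469968) rose 2.77-fold (1.47, SE 0.25, limma adjusted p = 0.00635) and its second probe 3.26-fold (1.70, SE 0.25, limma adjusted p = 0.00287). Psme1 rose 1.95-fold (0.97, SE 0.22, limma adjusted p = 0.0213) and Tapbp 2.30-fold (1.20, SE 0.34, limma adjusted p = 0.0442). H2-Oa was well above background on 3 KO arrays, 1 Het array and 1 WT array, so its difference of 2.12 rests partly on signals near background. H2-Oa and H2-Ab1 entered this fit through groups in which they were high, H2-Oa through KO cells and H2-Ab1 through KO and Het cells, so their calls give no support to the count, and without them 5 probes were called. For KO minus Het 0 of 46 were called, against 7.82% of all tested probes. Without WT 3 alone, 2 members rose in Het minus WT (4.65%, against 3.36% of all tested probes) and 3 in KO minus WT (6.98%, against 3.98%), which were Psme1 and Tapbp in both and H2-Q8 in the second.

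**Figure D4:**
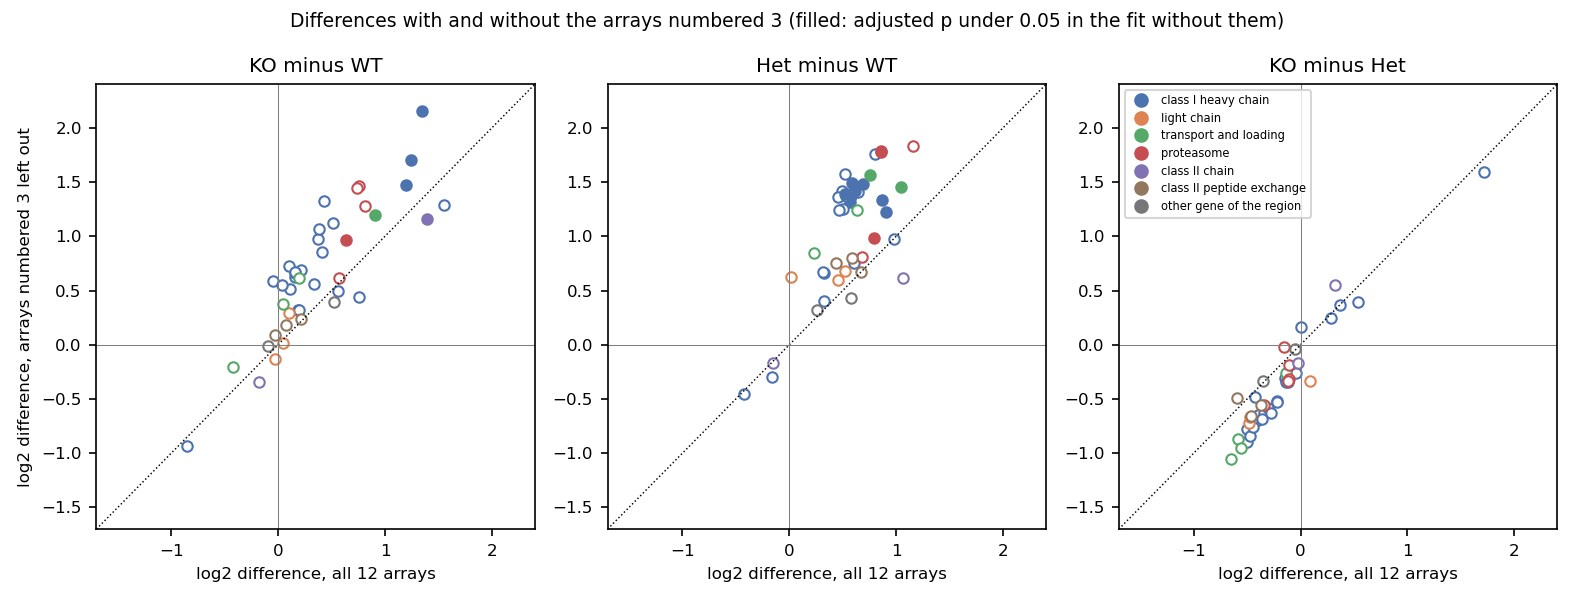
Log2 difference of each member tested with all 12 arrays (x axis) against its value without the arrays numbered 3 (y axis), coloured by role, with filled points for an adjusted p under 0.05 in the fit without them and a dotted line where both values are equal. In Het minus WT most class I points lie above the line, at 1.22 or more for the filled heavy chains, whereas no point is filled in KO minus Het.

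The regulators of MHC transcription were followed as a list of 20 genes, of which 17 were tested, and 0 passed the test in any comparison. Their median difference was 0.27 for KO minus WT, 0.35 for Het minus WT and −0.08 for KO minus Het. Nlrc5, the class I transactivator, has no probe under that name, and Ciita, the class II transactivator, was well above background on 2 KO arrays, 2 Het arrays and 0 WT arrays and was not tested. Irf1, an interferon-induced factor that binds class I promoters, stood at 3.70, 3.33, 4.26 and 4.16 on the KO arrays, 4.25, 3.37, 4.13 and 4.03 on the Het arrays and 3.42, 3.08, 3.07 and 3.44 on the WT arrays. Arrays KO 3 and Het 3 lay with the WT arrays. Irf1 differed by 0.61 for KO minus WT (SE 0.25, limma adjusted p = 0.254) and 0.69 for Het minus WT (SE 0.25, limma adjusted p = 0.208). Nfkb1, a subunit of NF-kB, differed by 0.31 and 0.67 (limma adjusted p = 0.587 and 0.207).

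Irf7, a factor that amplifies the type I interferon response, was among 3 regulators that rose in Het minus WT without the arrays numbered 3, with Irf1 and Nfkb1. These were 3 of 17 tested, against 4.7% of all tested probes in that direction. Irf7 stood at 1.57, 1.05, 1.46 and 1.69 on the KO arrays, 3.47, 0.33, 2.63 and 2.55 on the Het arrays and 1.37, −1.03, 2.13 and 0.84 on the WT arrays. Het 2 was the highest Het array and Het 3 the lowest, and WT 3 was the highest WT array, as for H2-K1, while the lowest WT array was WT 2 here and WT 5 for H2-K1. In all 12 arrays its difference was 1.42 for Het minus WT (SE 0.70, limma adjusted p = 0.349). Without the arrays numbered 3 it was 2.49 (limma adjusted p = 0.0236), and leaving out Het 3 and WT 3 by itself raises it. In that fit Irf1 and Rfxank, a subunit of the RFX complex of MHC promoters, rose in KO minus WT, by 0.72 and 1.26 (limma adjusted p = 0.0331 and 0.0182). These were 2 of 17, against 7.5% of all tested probes in that direction.

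Of 11 interferon ligands, receptors and kinases 10 were tested and 0 passed. The lowest p of the list was that of Socs1, an inhibitor of interferon signalling that interferons induce, with 0.75 for KO minus WT and 0.91 for Het minus WT (limma adjusted p = 0.13 and 0.0794). Without the arrays numbered 3, Socs1 rose by 0.76 and 1.11 (limma adjusted p = 0.0381 and 0.0113), and the receptor gene Ifnar1 rose in KO minus WT by 0.72 (limma adjusted p = 0.00813). These were 2 of 10 in KO minus WT and 1 of 10 in Het minus WT, against 7.5% and 4.7% of all tested probes in that direction. Ifnb1, the gene of interferon beta, was well above background on 4 KO, 3 Het and 2 WT arrays, between −7.80 and −3.32, and differed by 0.70 and 0.75 (limma adjusted p = 0.779 and 0.734). Of 8 other peptide-loading proteins, 8 were tested and 0 passed, with 7 of 8 differences above 0 for KO minus WT and 3 of 8 for Het minus WT. The tapasin-related gene Tapbpl and the peptide-trimming gene Erap1, named Arts1 on the array, had differences of 0.42 and 0.51 for KO minus WT and 0.85 and 0.67 for Het minus WT. Without the arrays numbered 3 both rose in Het minus WT (1.31 and 1.12, limma adjusted p = 0.00499 and 0.0175), 2 of 8 against 4.7% of all tested probes in that direction. In that fit Tapbpl also rose in KO minus WT (0.86, limma adjusted p = 0.022), 1 of 8 against 7.5%.

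Constitutive proteasome genes were compared with the inducible ones. All 18 were well above background on all 12 arrays, and 0 passed the test. Their median difference was 0.32 for KO minus WT and 0.25 for Het minus WT, against 0.74 and 0.86 for the 5 probes of the inducible genes and Psme1. In each comparison 17 of 18 were above 0, where 55.1% and 52.5% of all tested probes were. The log2 of their summed signal was lowest on WT 3, at 8.02, against 8.65 to 9.24 on the other arrays. Without the arrays numbered 3 the medians were 0.13 and 0.14, against 1.28 and 1.78 for the 5 probes. In that fit 1 of the 18, Psmb6, rose in KO minus WT (0.58, limma adjusted p = 0.0445), against 7.5% of all tested probes in that direction. None of the 18 was called in Het minus WT. The difference between the 2 lists was not tested.

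Cd74, the invariant chain that accompanies class II to endosomes, was the only gene of the class II chaperone and lysosome list of 4, 3 of them tested, that passed the test. It stood at −1.54, −2.23, −1.19 and −1.40 on the KO arrays, −2.99, −3.20, −3.26 and −3.47 on the Het arrays and −4.63, −3.94, −3.64 and −4.20 on the WT arrays. All KO arrays lay above all Het arrays, and all Het arrays above all WT arrays. Cd74 rose by 2.51 in KO minus WT (SE 0.26, limma adjusted p = 0.00185) and by 1.64 in KO minus Het (SE 0.26, limma adjusted p = 0.0163), and was 0.87 in Het minus WT (SE 0.26, limma adjusted p = 0.134). Without the arrays numbered 3 it rose in KO minus WT, Het minus WT and KO minus Het, by 2.88, 1.02 and 1.86 (limma adjusted p = 0.00011, 0.0189 and 0.0011). In that fit Ctsl of the same list also rose in Het minus WT, by 0.80 (limma adjusted p = 0.0128). The class II chains themselves stayed near background, as given above.

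**Figure D5:**
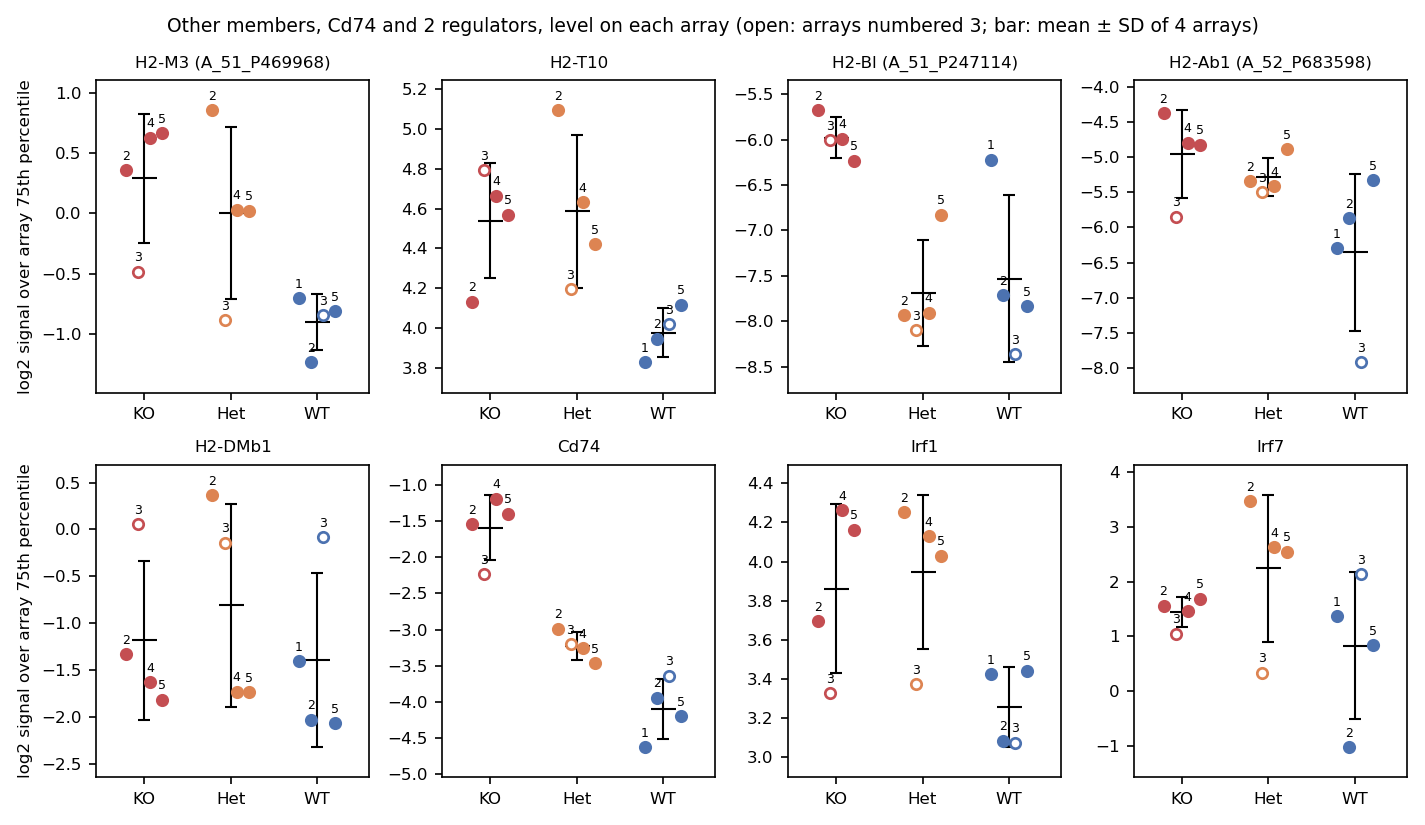
Level (y axis, log2 signal over the array 75th percentile) on each of 4 KO, 4 Het and 4 WT arrays of 5 further members, of Cd74 and of the regulators Irf1 and Irf7, numbered by replicate, with mean and SD as bars and open points for the arrays numbered 3. Cd74 is ordered KO, Het, WT without overlap, H2-DMb1 is high on all open points and Het 2, and Irf7 spans −1.03 to 2.13 in WT.

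Markers of other cell types are given because bulk RNA would include them, and their part in the results was not tested. The summed signal of the 10 macrophage and dendritic cell markers lay between −1.18 and −1.10 on the KO arrays, −1.21 and −0.59 on the Het arrays and −1.65 and −0.44 on the WT arrays, on the log2 scale of levels. WT 3, high for class I, was the lowest array by this sum, and WT 1 the highest. Of the B cell, T and NK cell and endothelial lists, 1 of 4, 2 of 6 and 2 of 5 genes were tested and 0 were called. Without the arrays numbered 3, the endothelial gene Kdr fell by 2.44 in KO minus WT and by 2.43 in Het minus WT (limma adjusted p = 0.0012 and 0.00173). In that fit 3 of 4 tested epithelial markers rose in KO minus WT, against 7.5% of all tested probes in that direction. They were Cdh1 by 2.70, Epcam by 1.85 and Krt18 by 1.67 (limma adjusted p = 0.0177, 0.0142 and 0.0468). Krt8 rose in Het minus WT by 3.52 (limma adjusted p = 0.00131). For KO minus Het, Cdh1 rose by 2.84 and Krt8 fell by 2.50 (limma adjusted p = 0.0207 and 0.0063). Of the fibroblast markers, Thy1 fell by 3.64 in KO minus WT, 1.62 in Het minus WT and 2.02 in KO minus Het (limma adjusted p = 3e-05, 0.00251 and 0.00072), Dcn fell by 2.95 in KO minus Het, Fbln1 rose by 1.17 in KO minus WT and Col3a1 rose by 1.18 in Het minus WT (limma adjusted p = 0.0155, 0.025 and 0.0216). With all 12 arrays, among epithelial markers Krt8 rose in Het minus WT (3.36, SE 0.61, limma adjusted p = 0.034) and Epcam, named Tacstd1 on the array, in KO minus WT (1.59, SE 0.34, limma adjusted p = 0.047), both from levels near background in WT cells. Of the 5 epithelial markers, 1 was well above background on all 12 arrays. The other tested ones passed the filter over all 12 arrays through only some genotypes. Calls of epithelial markers are therefore given as a description. Among fibroblast markers Thy1 fell by 3.47 in KO minus WT and Dcn and Thy1 fell by 3.21 and 2.16 in KO minus Het (limma adjusted p = 0.00097, 0.0191 and 0.0105).

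Promoter sequences are printed for a light chain, 2 heavy chain and 1 transporter gene, to show the letters around the start sites of the pathway's main components. They are RefSeq sequences of build GRCm38.p6, from 250 bases before the start site to 30 after it, 5′ to 3′ on the gene's strand, with matches of either strand to the interferon-stimulated response element (ISRE), the CCAAT box (CCAAT), the NF-kB site and GAS (TTCNNNGAA) in capitals.
B2m, chr2:122147437-122147716, plus strand: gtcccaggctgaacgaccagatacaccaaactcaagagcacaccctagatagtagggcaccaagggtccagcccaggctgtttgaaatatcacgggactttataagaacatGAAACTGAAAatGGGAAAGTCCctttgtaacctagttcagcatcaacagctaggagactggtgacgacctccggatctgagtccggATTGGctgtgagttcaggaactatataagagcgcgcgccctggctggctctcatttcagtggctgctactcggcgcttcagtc
H2-D1, chr17:35262844-35263123, plus strand: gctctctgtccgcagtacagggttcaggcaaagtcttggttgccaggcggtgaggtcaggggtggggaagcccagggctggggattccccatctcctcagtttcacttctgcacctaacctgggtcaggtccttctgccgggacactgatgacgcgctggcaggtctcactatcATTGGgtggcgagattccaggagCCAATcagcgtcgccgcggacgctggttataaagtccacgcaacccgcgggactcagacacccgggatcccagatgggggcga
H2-T23, chr17:36032672-36032951, minus strand: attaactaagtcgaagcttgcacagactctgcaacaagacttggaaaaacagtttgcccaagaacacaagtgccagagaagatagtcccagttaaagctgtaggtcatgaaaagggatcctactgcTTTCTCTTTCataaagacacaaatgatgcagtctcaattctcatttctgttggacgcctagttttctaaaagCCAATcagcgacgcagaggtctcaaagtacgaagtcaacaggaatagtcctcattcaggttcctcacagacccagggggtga
Tap1, chr17:34187306-34187585, plus strand: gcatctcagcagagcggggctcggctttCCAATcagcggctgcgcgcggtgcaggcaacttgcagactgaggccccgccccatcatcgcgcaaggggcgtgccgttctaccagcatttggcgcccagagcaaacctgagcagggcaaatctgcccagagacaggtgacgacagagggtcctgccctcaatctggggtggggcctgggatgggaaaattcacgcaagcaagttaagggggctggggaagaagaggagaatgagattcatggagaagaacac
The B2m window holds an ISRE match at −139 to −130 and an NF-kB match at −127 to −118, counted from the start site. The Tap1 window overlaps that of Psmb9 on the other strand, chr17:34187301-34187580.

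Promoters were available for 34 of the 44 member genes, each searched over its 300 bases on both strands, and for 27025 genes in all. A CCAAT match was present in 28 of the 34, or 82.4%, against 41.1% of all genes, and a TGACG match, the core of a cyclic AMP response element, in 14, or 41.2%, against 23%. An ISRE match was present in 4, or 11.8%, against 3.99% of all genes: B2m, H2-T22, H2-T23 and Psme1. GAS matches were present in 4, or 11.8%, against 9.55%, and an NF-kB match in 1, that of B2m, or 2.94%, against 2.12%. Of the 12 member genes with no tested probe 11 held a CCAAT match, and of the 16 tested genes of the class I pathway 12 did. A match is a run of letters and no evidence of a bound factor. A window without one may still hold a variant of the site, and it says nothing about regulation from elsewhere.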

How the data were processed

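Total RNA of 12 samples was labelled with Cy3 and hybridised to one-colour Agilent arrays, and the authors deposited the output of Feature Extraction 9.5, per the submitters' processing notes. Per the file headers, the deposited intensity is a processed signal after background subtraction, with a call for each spot on whether it is well above background, and positions are on build mm7. From it, control spots and spots flagged as outliers were left out, spots of 1 probe were averaged, and log2 values minus the 75th percentile of the array were computed, the log2 scale of all levels here. The table of processed values deposited by the authors held the same intensity values. Genotypes were compared in pairs over all 12 arrays with limma 3.58.1 in R 4.3.3 (lmFit and eBayes, two-sided), with Benjamini-Hochberg adjustment over 25600 probes and a threshold of 0.05. The fit was tested on simulated data with known changes. Single probes were also given an exact permutation test over 4 against 4 arrays. Tables and figures used Python 3.11.15, pandas 2.3.3 and matplotlib 3.10.9.

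Values on each array are given for the probe with the highest mean of each core gene (H2-K1, H2-D1, B2m, Tap1, Tap2, Tapbp, Psmb8, Psmb9, Psmb10 and Psme1) and for the 5 members with the largest differences per comparison. Other lists are given by counts, with values for genes that passed the test and for the lowest p-values; H2-T10, H2-DMb1, H2-DMb2, Irf7, Ifnb1, H2-Eb1, Ifnar1, Tapbpl and Erap1 were added after their values were seen. The members, gene lists and marker lists were chosen with earlier results of these data known. Precision is limited by the number of arrays, 4 per genotype. Alternatives were no filter, normexp background correction with an offset of 50, quantile scaling, no scaling, 1 probe per gene, the slide or the replicate number as a block, values within slides, and leaving out single arrays or the arrays numbered 3. Gene symbols were matched to RefSeq by accession for 56 of the 67 probes and by symbol for 11. The values of 1 gene of the regulator list are not reported here.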

Additional observations from a re-analysis of the deposited data

Results flagged for a closer look

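Among the probes with values for each array, 54 groups of 4 arrays were searched for a single array far from the other 3, and 4 such arrays were found, while chance gives about 1 in 20 groups. Psmb9 stood at 1.66 on KO 3, above the other KO arrays, with a gap that was 0.835 of the group's range. H2-Q8 stood at 1.68 on KO 2, above the other KO arrays, with a gap of 0.895 of the range. The near-background probe A_51_P247114 of H2-Bl stood at −6.83 on Het 5, above the other Het arrays, with a gap of 0.848 of the range. H2-M10.2, also near background, stood at −4.73 on WT 5, above the other WT arrays, with a gap of 0.881 of the range.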

How the results depend on the processing

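With all 12 arrays 0 members were called in each comparison. Without the arrays numbered 3 the count was 7 for KO minus WT and 14 for Het minus WT, from a test in which 4133 and 2739 probes were called in all, against 383 and 278 with all arrays. The cause was not tested. Leaving out single arrays gave 0 to 3 calls for KO minus WT, 0 to 2 for Het minus WT and 0 to 1 for KO minus Het. The 3 and the 2 came without WT 3, where 3.98% and 3.36% of all tested probes were called higher. The 1 for KO minus Het came without WT 1 and was H2-Bl (A_51_P247114), which entered the test only through the KO arrays, where it is high. Without a filter on dim probes 1 probe of H2-Bl (A_52_P560113) was called for KO minus WT (1.55, limma adjusted p = 0.019).

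The median over the members for KO minus Het was 0.033 without scaling, where it was −0.22 with it, and leaving out single arrays gave −0.417 to 0.0057. For KO minus WT such medians were 0.0335 to 0.576 and for Het minus WT 0.293 to 0.989. Of 41 differences of single probes, 31 kept their sign under all alternatives. For KO minus WT, B2m was −0.0007 with quantile scaling and −0.099 within slide 3, H2-DMa −0.007 and H2-M10.2 −0.789 within slide 4, and Tapbp (A_52_P684830) −0.0137 with the replicate block. For Het minus WT, Tap1 was −0.0094 without scaling and −0.127 within slide 4, and H2-Bl (A_51_P247114) was 0.0892 with normexp, 0.426 with slide as a block, 0.316 with the replicate block, 0.104 within slide 3 and 1.01 within slide 4. For KO minus Het within slide 1, Tap1 was 0.051 and Tap2 0.092. Leaving out single arrays gave ranges through 0 for KO minus WT of B2m (−0.121 to 0.232), H2-D1 (−0.0892 to 0.61), H2-DMa (−0.162 to 0.251), Tap2 (−0.356 to 0.519) and Tapbp A_52_P684830 (−0.0642 to 0.574), and for Het minus WT of Tap1 (−0.147 to 0.55) and H2-Bl (−0.448 to 0.279).

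Arrays of the genotypes share replicate numbers. Of 10 pairs with the same number, the correlation of deviations from the group mean ranged from −0.093 to 0.399, with 5 over 0.1, and 3 of 11 arrays correlated best with their own number. The pairs numbered 3 lay at 0.204 to 0.399 and the other pairs at −0.093 to 0.301, so the numbers as a whole do not pair the arrays. With the replicate block, 1 member was called for KO minus WT (H2-Bl A_51_P247114, 2.03, limma adjusted p = 0.0439) and the same probe for KO minus Het (1.72, limma adjusted p = 0.0397), and 0 for Het minus WT. This probe entered the test only through the KO arrays, where it is high. With the replicate block the medians were 0.34, 0.64 and −0.22. No other array has the number of WT 1, so this block takes WT 1 out of the comparisons. Leaving out WT 1 alone gave the same 2 calls of H2-Bl A_51_P247114 (1.99 and 1.72, limma adjusted p = 0.0193 and 0.022).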
